A study of Mus musculus with 6 samples.

Results

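The 10 genes described here mark blood vascular endothelium, the cell layer that lines arteries, capillaries and veins. They were taken by symbol from the deposited table of 41064 genes as Pecam1, Cdh5, Esam, Tie1, Tek, Ptprb, Vwf, Nos3, Plvap and Emcn. Each symbol matched 1 row, and all 10 passed the filter on low counts that left 20132 genes for testing. The samples were aortas of mice given angiotensin II, a peptide that constricts vessels and provokes remodelling of the vessel wall. There were 3 RNA sequencing libraries labelled wild type and 3 labelled as knockouts of Josd2, which encodes a deubiquitinase. Both groups received angiotensin II, and untreated aortas were not analysed here. Strain, age, dose, duration and the kind of knockout are not given in the labels, and the labels do not tie a library to an animal, so p-values measure only how these samples scatter, which may be technical. The extraction text in the labels speaks of adipose RNA, although each sample is labelled as aorta.

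Endothelial cells hold together through homophilic adhesion molecules at their borders, keep the vessel quiet through the angiopoietin receptors of the Tie family, release nitric oxide to relax the smooth muscle beneath, and store von Willebrand factor for haemostasis. In the large arteries they form a single layer on the lumen, while the small vessels of the outer wall and the surrounding fat carry capillary and venous endothelium, which is rich in the products of Plvap and Emcn. These statements are background and not results.

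Summed counts per library lay between 63612353 and 75886761. Mitochondrially encoded transcripts took 36.2% of counts in each wild type library and 23.8% to 23.9% in the labelled knockouts, so the scaling of libraries bears on each fold change. Levels are given as CPM (counts scaled to a fixed library total after TMM normalization), which sets libraries to a common scale from the bulk of genes. Library totals in place of TMM shift the fold change of the median gene upward by 0.41 on the log2 scale. The targeted gene was still transcribed, with Josd2 at 30.1 ± 0.836 CPM in wild type and 20.97 ± 0.947 CPM in labelled knockout libraries (SD, n = 3 each), and its fall (log2 fold change -0.52, edgeR adjusted p = 0.000244) did not pass with library totals (-0.11, edgeR adjusted p = 0.231), so each direction rests on the label. Smooth muscle genes were high in each library, with 7 markers summing to 5721 to 5771 FPKM in wild type and 7018 to 7055 FPKM in the labelled knockouts. The deposited FPKM, and each sum of them compared between groups, carry the same upward shift of 0.41 on the log2 scale.

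Blood endothelial genes were higher in the labelled knockouts, with 2 exceptions. Of the 10 genes, 8 rose, none fell and 2 did not pass (edgeR quasi-likelihood test, Benjamini-Hochberg adjusted p under 0.05), whereas 13.2% of all tested genes rose and 11.5% fell. At an unadjusted p under 0.05 none of the 10 was lower either, nor was any called lower by DESeq2 or limma. Their median log2 fold change was 0.83, against -0.0031 over all tested genes. Of the 8 that rose, 4 did so by at least 2-fold, as did 2.57% of all tested genes. In the same 8 genes each labelled knockout library lay above each wild type library, a separation that 21.3% of all tested genes showed upward. In bulk tissue, more endothelial cells and more RNA per endothelial cell cannot be told apart.

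**Figure D1:**
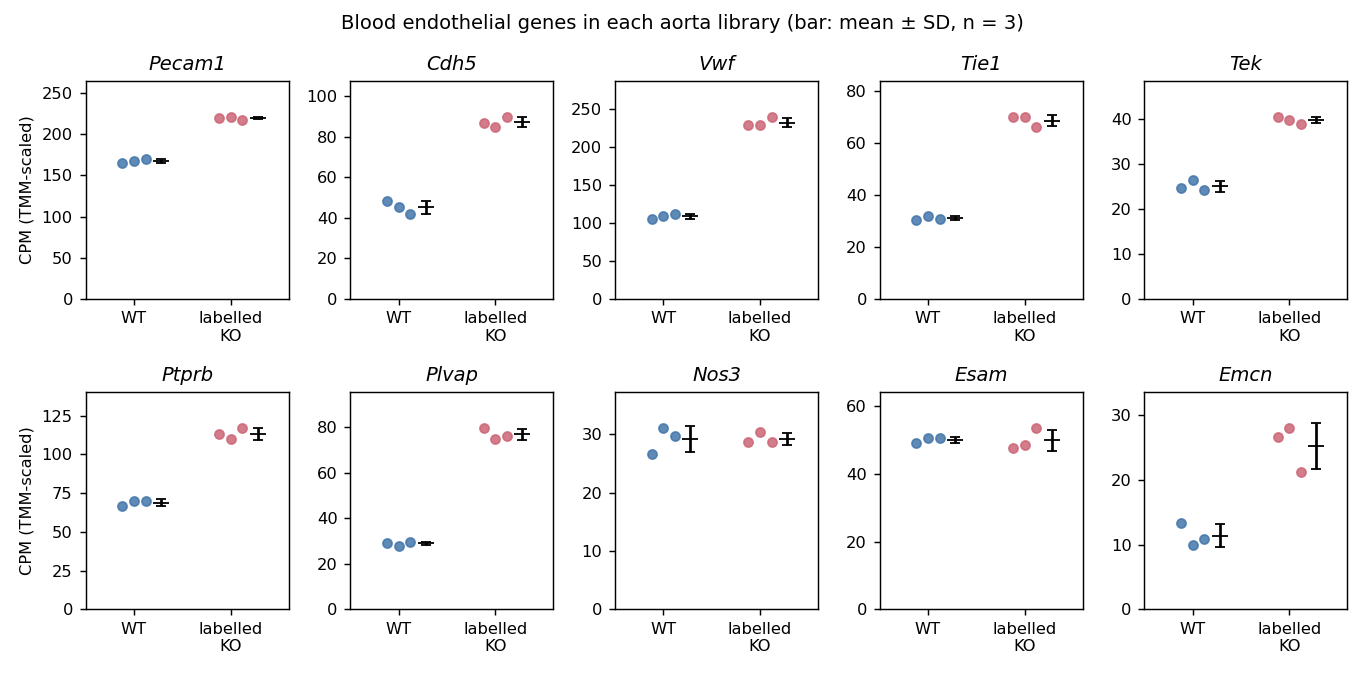
TMM-scaled CPM of the 10 blood endothelial genes in each library, wild type in blue and labelled knockout in red, with mean ± SD of 3 libraries as black bars. The groups are separate for 8 genes and overlap for Nos3 and Esam, at 26.7 to 31.1 CPM and 47.7 to 53.6 CPM.

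Among the adhesion molecules of the cell border, Pecam1 and Cdh5 rose and Esam did not pass. Pecam1 encodes PECAM-1 (CD31), an immunoglobulin-family adhesion molecule that platelets and leukocytes also carry, and lies on chromosome 11 from 106654217 to 106750628 on the minus strand (GRCm38 coordinates, as in the deposited table). Its level was 166, 168 and 170.2 CPM in the wild type libraries and 220.2, 221 and 218 CPM in the labelled knockouts. The groups were well apart, at means of 168 ± 2.23 and 219.7 ± 1.45 CPM (log2 fold change 0.39, SE 0.03, edgeR adjusted p = 1.74e-06), although this was the smallest of the 8 increases. Up to 7.52% of a Pecam1 transcript matched transcripts of 5 other genes at 97% identity or more.

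Cdh5 encodes VE-cadherin, the adherens junction cadherin of endothelium, and lies on chromosome 8 from 104101625 to 104144511 on the plus strand. It was measured at 48.2, 45.6 and 41.7 CPM in wild type and at 87.1, 84.9 and 89.6 CPM in the labelled knockouts. The means of 45.2 ± 3.29 and 87.2 ± 2.36 CPM differed 1.93-fold, with a log2 fold change of 0.95 (SE 0.06, edgeR adjusted p = 4.95e-07). Esam, on chromosome 9 from 37528078 to 37538319 on the plus strand, encodes an immunoglobulin-family adhesion molecule of endothelial tight junctions and platelets. Its libraries read 49.1, 50.6 and 50.5 CPM in wild type and 47.7, 48.4 and 53.6 CPM in the labelled knockouts. Here the groups overlapped, with 2 labelled knockout libraries below and 1 above the wild type range. The log2 fold change of -0.01 had a 95% interval of -0.13 to 0.12 (edgeR adjusted p = 0.958), so on the TMM scale a rise as large as that of Pecam1 lies outside it.

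Both Tie receptor genes and Ptprb rose, unequally. Tie1 and Tek encode the receptor tyrosine kinases TIE1 and TIE2, of which TIE2 binds the angiopoietins and TIE1, with no high-affinity angiopoietin of its own, modulates it. Ptprb encodes VE-PTP, a phosphatase that acts on TIE2 and on VE-cadherin complexes. Tie1, on chromosome 4 from 118471191 to 118490061 on the minus strand, went from 30.3, 31.8 and 30.7 CPM to 69.8, 69.8 and 66.2 CPM. Its means of 30.9 ± 0.804 and 68.6 ± 2.10 CPM differed 2.22-fold, with a log2 fold change of 1.15 (SE 0.05, edgeR adjusted p = 4.09e-08). Tek, on the plus strand of the same chromosome from 94739289 to 94874976, rose less. Its wild type libraries stood at 24.5, 26.4 and 24.2 CPM and the labelled knockouts at 40.4, 39.8 and 39.0 CPM (log2 fold change 0.66, SE 0.06, edgeR adjusted p = 1.68e-05). Ptprb, on chromosome 10 from 116275523 to 116389535 on the plus strand, had 66.6, 70.0 and 70.2 CPM in wild type against 113, 109.7 and 117 CPM. Its increase (log2 fold change 0.72, SE 0.04, edgeR adjusted p = 4.27e-07) was close to that of Tek. The ratio of Ptprb to Tek on the FPKM scale was 0.974 ± 0.0471 in wild type against 1.01 ± 0.0461 in the labelled knockouts, with overlapping libraries. The ratio of Tie1 to Tek was 1.18 ± 0.0310 and 1.66 ± 0.0276, without overlap (SD, n = 3 each).

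Promoter sequence was matched for 3 of the 10 genes, Tie1, Tek and Emcn, in the RefSeq table for GRCm38.p6. The sequences run from 250 bases before to 50 bases after the start site, 5′ to 3′ on the gene's strand. They are shown because endothelial genes are known targets of ETS-family transcription factors such as ERG, whose core motif is GGAA. Capitals mark GGAA or its reverse complement TTCC. The windows are chr4:118489800-118490099 (minus strand) for Tie1, chr4:94739039-94739338 (plus strand) for Tek and chr3:137340828-137341127 (plus strand) for Emcn. For Tie1 the RefSeq start lies inside the deposited gene span, which reaches 118490061, so most of its window falls within that span.
Tie1: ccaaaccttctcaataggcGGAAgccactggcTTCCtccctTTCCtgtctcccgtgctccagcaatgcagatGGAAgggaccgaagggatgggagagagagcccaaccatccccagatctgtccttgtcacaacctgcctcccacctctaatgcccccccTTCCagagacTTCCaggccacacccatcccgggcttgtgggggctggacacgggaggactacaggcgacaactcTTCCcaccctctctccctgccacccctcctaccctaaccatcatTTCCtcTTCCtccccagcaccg
Tek: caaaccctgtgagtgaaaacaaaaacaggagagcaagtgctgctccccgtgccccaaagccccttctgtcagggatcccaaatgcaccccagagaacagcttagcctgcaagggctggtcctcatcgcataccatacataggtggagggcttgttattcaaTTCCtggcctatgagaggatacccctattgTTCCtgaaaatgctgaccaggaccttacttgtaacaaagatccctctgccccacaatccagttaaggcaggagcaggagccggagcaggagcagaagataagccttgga
Emcn: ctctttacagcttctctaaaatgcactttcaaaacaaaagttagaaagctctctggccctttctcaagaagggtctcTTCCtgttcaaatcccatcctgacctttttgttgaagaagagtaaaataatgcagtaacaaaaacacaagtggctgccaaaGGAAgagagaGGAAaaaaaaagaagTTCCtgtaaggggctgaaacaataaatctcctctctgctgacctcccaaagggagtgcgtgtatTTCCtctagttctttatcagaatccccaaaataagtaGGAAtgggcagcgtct

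Counting both strands, the Tie1 window held 9 matches to GGAA, the Emcn window 6 and the Tek window 2. Of 32851 promoter windows of the same length, 96.0% held at least 1 match, with a median of 3. As many matches as in Tie1 were found in 1.59% of windows, as many as in Emcn in 15.7% and as many as in Tek in 84.6%. The longer form CAGGAAG, which contains GGAA, matched 1 time in Emcn, as in 13.3% of all windows, and did not match in the windows of Tie1 and Tek. AGATAA, a form of the site bound by GATA factors, matched 1 time in Tek, as in 11.2% of windows.

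Of the other genes of the angiopoietin system, 3 of 6 rose, 2 fell and 1 did not pass, with a median log2 fold change of 0.14. Svep1, whose large matrix protein is a ligand of TIE1, rose from 37.9 to 139.5 CPM (1.88 on the log2 scale, SE 0.05), the largest change of this list. Angpt2, the context-dependent TIE2 ligand that endothelial cells release, rose by little, from 46.8 to 55.5 CPM (log2 fold change 0.24, SE 0.05, edgeR adjusted p = 0.004). Angpt1, the TIE2 agonist made by mural cells, was low, at 1.43 against 2.98 CPM (log2 fold change 1.05, SE 0.29, edgeR adjusted p = 0.0231). Its call was lost without wild type 1 or 2 or labelled knockout 2 or 3, at an edgeR adjusted p of 0.0602, 0.062, 0.052 and 0.103. Angpt4, a further ligand, fell from 28.2 to 10.8 CPM (-1.39, SE 0.09), and Dok2, which encodes an adaptor of TIE2 that leukocytes also express, fell from 6.52 to 2.56 CPM (-1.34, SE 0.16). Foxo1, a transcription factor restrained by TIE2 signalling, had a log2 fold change of 0.04 (SE 0.06, edgeR adjusted p = 0.717). Both receptors, the phosphatase and Svep1 rose, while the angiopoietin genes went in both directions.

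Von Willebrand factor and nitric oxide synthase, a stored protein and an enzyme that both define endothelium, behaved differently. Vwf, on chromosome 6 from 125546774 to 125686679 on the plus strand, encodes the multimeric protein that tethers platelets and carries factor VIII. Its wild type libraries had 105, 108 and 111 CPM, and the labelled knockouts 228, 228 and 239 CPM. The groups lay far apart relative to their spread, at 108 ± 2.94 and 232 ± 6.07 CPM (log2 fold change 1.10, SE 0.03, edgeR adjusted p = 1.74e-09). Nos3 encodes endothelial nitric oxide synthase, which makes the nitric oxide that relaxes smooth muscle, and lies on chromosome 5 from 24364810 to 24384474 on the plus strand. Its level was 26.7, 31.1 and 29.7 CPM in wild type and 28.6, 30.4 and 28.7 CPM in the labelled knockouts. These libraries overlap throughout, with a log2 fold change of 0.0038 (95% interval -0.16 to 0.17, edgeR adjusted p = 0.979). The antisense genes Atg9b and Gm15587 overlap 32.3% of the Nos3 exon bases, and no strand setting is stated. They had few counts themselves, 30 to 80 per wild type library and 26 to 54 per labelled knockout library for Atg9b, against 1473 to 2655 for Nos3. Gm15587 had 12, 31 and 22 counts in wild type and 63, 80 and 51 in the labelled knockouts, without overlap (log2 fold change 1.06, SE 0.52, edgeR adjusted p = 0.175).

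Genes around nitric oxide synthase gave no common direction. Of 14, 4 rose, 2 fell and 8 did not pass, with a median of -0.08, which library totals turn to 0.32 (9 higher, none lower). Cav1, the caveolar protein that binds and restrains the synthase, rose from 360.2 to 477 CPM (0.41 on the log2 scale, SE 0.02). Gucy1b1, a subunit of the nitric oxide receptor of smooth muscle, rose by 0.65 (SE 0.05). Gucy1a1, which encodes its partner subunit, rose by 0.18 (SE 0.06, edgeR adjusted p = 0.0336), a call lost without wild type 1 or 3 or labelled knockout 2 or 3 (edgeR adjusted p = 0.0697 to 0.116). Nos2, the inducible synthase gene, rose from 0.679 to 2.36 CPM (1.79, SE 0.35). The chaperone gene Hsp90ab1 fell on the TMM scale (-0.15, SE 0.02), but turned to 0.26 with library totals. Nos1, the neuronal synthase, was near the detection limit at 0.961 and 0.292 CPM (-1.71, SE 0.54, edgeR adjusted p = 0.0394). Without wild type 1 or 2 or any labelled knockout library its call was lost, at an edgeR adjusted p of 0.0643 to 0.110. DESeq2 called 5 of the 14 lower.

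Storage partners of von Willebrand factor went in both directions. Of 11 genes for its storage, release and clearance 10 were tested, of which 2 rose, 2 fell and 6 did not pass, with a median of 0.06. Selp, the P-selectin gene, and Cd63, a tetraspanin gene, encode proteins held in the same storage granules of endothelium. Selp fell from 25.0 to 19.7 CPM (log2 fold change -0.34, SE 0.07, edgeR adjusted p = 0.00591) and Cd63 from 273 to 207 CPM (-0.40, SE 0.04). With library totals neither was called, at 0.07 and 0.01. Independent of scaling, the ratio of Vwf to Selp on the FPKM scale was 1.14, 1.14 and 1.30 in wild type and 3.19, 3.17 and 3.32 in the labelled knockouts. Whether the Selp and Cd63 transcripts came from endothelium or from other cells of the sample was not tested. Rab3d, a GTPase gene of granule release, rose by 0.36 (SE 0.06), and Stxbp5, which encodes a regulator of granule release, by 0.43 (SE 0.11, edgeR adjusted p = 0.0176). The number of genes that rose was 4 without wild type 2, and 1 without labelled knockout 1 or 2, where Stxbp5 did not pass (edgeR adjusted p = 0.0745 and 0.0608). DESeq2 called 4 higher. Of 3 genes known to respond to blood flow, Thbd, the thrombomodulin gene, rose from 53.8 to 132 CPM (1.29, SE 0.04), Klf2, a flow-induced transcription factor gene, fell (-0.47, SE 0.08, edgeR adjusted p = 0.00194), and Klf4 stood at 0.02 (SE 0.06). Scaled by library totals, Klf2 no longer passed (-0.06, edgeR adjusted p = 0.607).

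Plvap and Emcn, which are typical of capillary and venous endothelium, were among the genes that rose most. Plvap encodes the protein that forms the diaphragms of fenestrae and caveolae, and lies on chromosome 8 from 71497765 to 71511752 on the minus strand. Its libraries read 29.1, 28.01 and 29.6 CPM in wild type and 79.6, 75.0 and 76.2 CPM in the labelled knockouts. With means of 28.9 ± 0.834 and 76.9 ± 2.41 CPM it showed the largest increase of the 10 genes (2.66-fold, or 1.41 on the log2 scale with an SE of 0.05, edgeR adjusted p = 6.58e-09). Emcn encodes endomucin, a sialomucin of the endothelial surface, and lies on chromosome 3 from 137341067 to 137432185 on the plus strand. It was the least expressed of the 10 genes, at 13.4, 9.98 and 10.8 CPM against 26.5, 27.995 and 21.2 CPM. Its libraries were also the most scattered, with a coefficient of variation of 15.6% and 14.1%, yet the groups did not overlap (log2 fold change 1.15, SE 0.13, edgeR adjusted p = 8.42e-05).

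**Figure D2:**
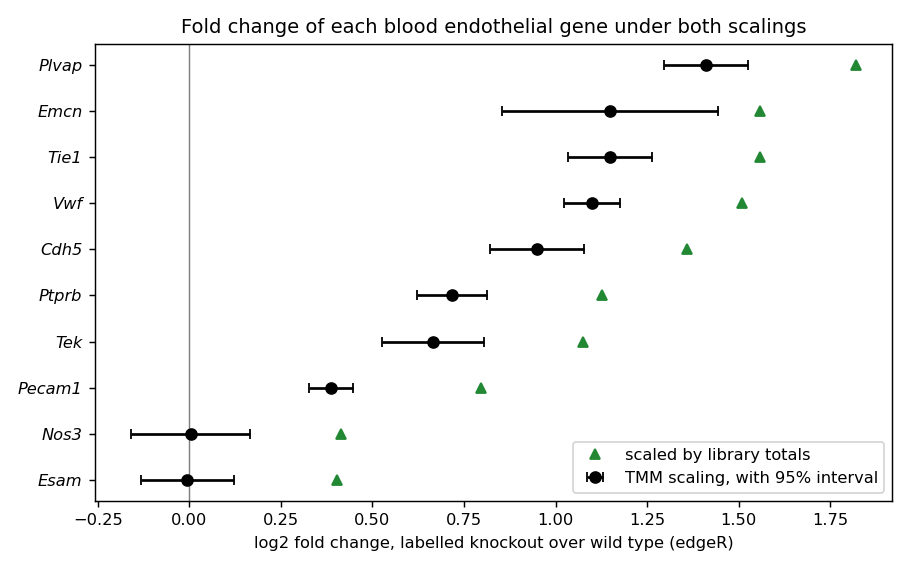
Log2 fold change of each gene, labelled knockout over wild type, with TMM scaling (black points, bars are 95% intervals) and with library totals (green triangles, no interval drawn). Plvap stands highest at 1.41 and Esam and Nos3 lie at 0 within their intervals on the TMM scale, whereas with library totals all 10 genes are above 0, from 0.40 to 1.82.

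Among the 10 genes, only the calls of Nos3 and Esam changed with the scaling of libraries. With library totals, edgeR called all 10 genes higher, Nos3 at 0.41 (adjusted p = 0.000704) and Esam at 0.40 (adjusted p = 0.00016), which is the 0.41 shift of the median gene. With library totals that leave out the mitochondrially encoded genes, Nos3 (0.16, edgeR adjusted p = 0.135) and Esam (0.15, edgeR adjusted p = 0.0744) did not pass. The other 8 genes kept their calls under all 17 alternatives.

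Per unit of length, the order of the genes changed between groups. In wild type Pecam1 was highest at 19.8 ± 0.285 FPKM, followed by Esam at 12.8 ± 0.221, Plvap at 10.7 ± 0.323, Cdh5 at 7.90 ± 0.567, Nos3 at 5.19 ± 0.401, Vwf at 4.95 ± 0.140, Tie1 at 4.62 ± 0.117, Tek at 3.90 ± 0.184, Ptprb at 3.80 ± 0.113 and Emcn at 1.54 ± 0.243 FPKM. Neighbours in this order overlapped only for Nos3 with Vwf and for Tek with Ptprb. In the labelled knockouts Plvap led at 37.8 ± 1.18 FPKM, ahead of Pecam1 at 34.4 ± 0.169, Cdh5 at 20.2 ± 0.580, Esam at 17.0 ± 1.11, Vwf at 14.1 ± 0.392, Tie1 at 13.6 ± 0.396, Ptprb at 8.29 ± 0.282, Tek at 8.22 ± 0.133, Nos3 at 6.91 ± 0.227 and Emcn at 4.55 ± 0.636 FPKM. Here Vwf overlapped with Tie1 and Ptprb with Tek. Plvap passed both Esam and Pecam1, Cdh5 passed Esam, and Nos3 fell from position 5 to position 9. The deposited FPKM are scaled by totals that include mitochondrial transcripts, so only the order within a group, and not the rise of all lines, is free of that scaling.

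**Figure D3:**
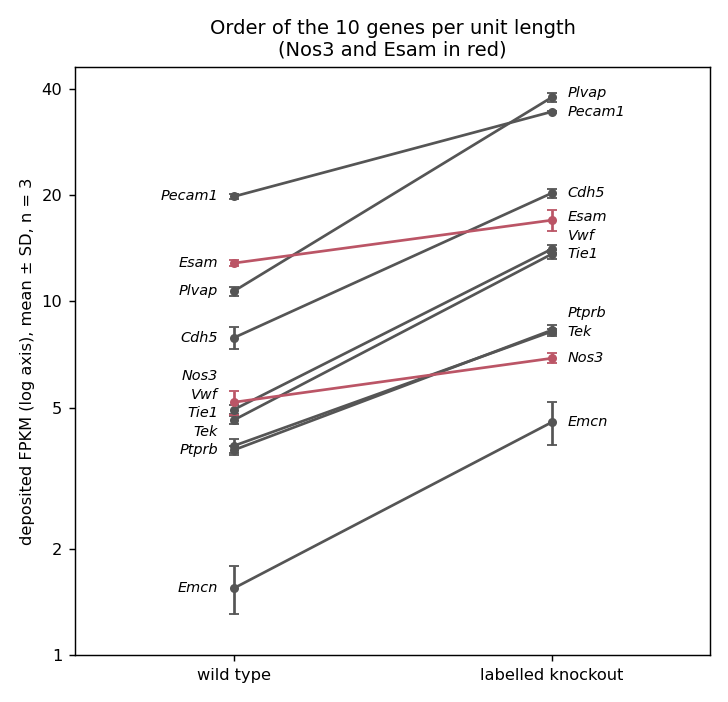
Deposited FPKM (log axis) of each gene as mean ± SD of 3 libraries, wild type left and labelled knockout right, with names spread apart where points crowd. The lines of Esam and Nos3 (red) are flatter than the others, and Plvap crosses from 10.7 to 37.8 FPKM to the top.

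Ratios within a library do not depend on how libraries are scaled, and they showed that the genes rose unequally. Relative to Cdh5, Plvap and Tie1 were higher in the labelled knockouts without overlap, as were 1.35% of 18284 genes. Pecam1, Tek, Ptprb, Nos3 and Esam were lower without overlap, as were 78% of those genes, since Cdh5 itself rose. The log2 ratio of Esam to Cdh5 was 0.15 ± 0.126 in wild type against -0.81 ± 0.0626 in the labelled knockouts, a difference of -0.96. Nos3 gave nearly the same difference, -0.95, with single libraries at -0.85, -0.55 and -0.49 against -1.61, -1.48 and -1.64. Per unit of VE-cadherin transcript, Nos3 thus stood at 0.519 and Esam at 0.514 of their wild type ratio, Pecam1 at 0.676, and Plvap at 1.38. Vwf (0.15) and Emcn (0.20) overlapped between groups. The difference of Tie1 (0.20) was as small as that of Emcn, and its groups were barely apart. Its highest wild type library lay at -0.4425 and its lowest labelled knockout library at -0.4383. Each of the 7 separated ratios had an exact permutation p of 0.10 (two-sided, adjusted p = 0.129 over 9 ratios), the smallest that 3 against 3 libraries allow, so none can pass the threshold in this design. The direction for Tek and Ptprb depends on the reference, since relative to Pecam1 both were higher (0.28 and 0.33).

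**Figure D4:**
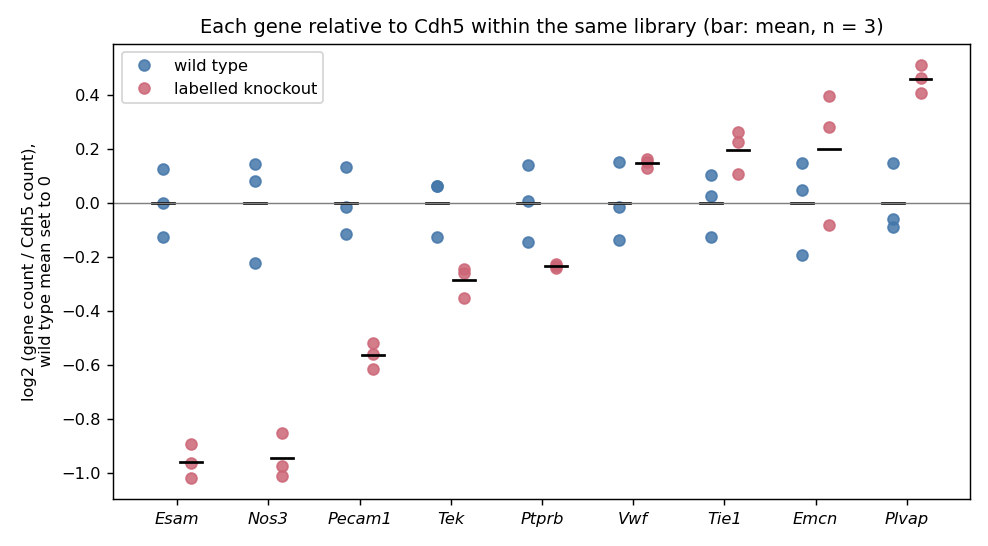
Log2 ratio of each gene's count to the Cdh5 count in the same library, shown relative to the wild type mean (blue, wild type; red, labelled knockout; bars are means of 3 libraries). Esam and Nos3 lie near -0.96 and -0.95, Pecam1 at -0.56 and Plvap at 0.46, all clear of the wild type points.

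Other endothelial genes moved in the same direction as the majority of the 10. Of 24, 19 rose, 1 fell and 4 did not pass, with a median log2 fold change of 0.62. Kdr, the main VEGF receptor gene, rose from 16.0 to 58.1 CPM (1.86 on the log2 scale, SE 0.12), Flt1, which encodes another VEGF receptor, by 1.07 (SE 0.05), and Eng, the TGF-beta co-receptor endoglin, by 0.57 (SE 0.04). Among ETS-family factors of endothelium, Fli1 rose by 0.58 (SE 0.12) and Erg by 0.19 (SE 0.06, edgeR adjusted p = 0.0316). The call of Erg was lost without wild type 1 or 2 or labelled knockout 1 or 3, at an edgeR adjusted p of 0.0581 to 0.125. The 5 genes of this list that did not rise are named here after their values were seen. Cldn5, the endothelial tight junction claudin, fell from 33.4 to 27.4 CPM (-0.29, SE 0.06, edgeR adjusted p = 0.00749), a direction that library totals turn to 0.12 without a call. Ecscr (0.22), Icam2 (0.40), Cd34 (0.11) and Sox17 (0.31) did not pass in edgeR, although DESeq2 called the last 3 higher. Cd34 passed without wild type 1 (edgeR adjusted p = 0.032) and Icam2 without labelled knockout 2 (edgeR adjusted p = 0.0304). Of 10 intracellular and transmembrane partners at endothelial junctions, 7 rose and none fell, with a median of 0.16. Their wild type means ran from 16.8 CPM (F11r) to 488 CPM (Ctnnb1), against 45.2 CPM for Cdh5. Which cells of the bulk tissue these transcripts came from was not tested, so the counts are not those of endothelium alone. Afdn, which encodes the junction scaffold afadin, rose by 0.61 (SE 0.05), Jam2 by 0.62 (SE 0.05), the scaffold gene Tjp1 by 0.33 (SE 0.05), F11r by 0.42 (SE 0.09) and the alpha-catenin gene Ctnna1 by 0.14 (SE 0.03). The rise of Jam3 (0.19, SE 0.06, edgeR adjusted p = 0.0408) was lost without any 1 library other than wild type 3 (edgeR adjusted p = 0.0707 to 0.140). Ctnnb1, the beta-catenin gene, rose by 0.07 (SE 0.02, edgeR adjusted p = 0.0217), which was lost without labelled knockout 1 or 3 (edgeR adjusted p = 0.0515 and 0.0737). Jup (0.08), Magi1 (0.11) and Ctnnd1 (-0.02) did not pass, and library totals turn Ctnnd1 to 0.39. Neither edgeR at an unadjusted p under 0.05 nor DESeq2 called any of these 10 lower.

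Capillary, venous and arterial genes were counted apart, and the difference between the lists was not tested. Of 9 capillary and venous genes 7 rose and 1 fell (median 0.83), with Ephb4, a venous receptor gene, at 0.83 (SE 0.05), Cd300lg at 0.89 (SE 0.06) and Gpihbp1, which carries lipoprotein lipase in capillaries, at 0.58 (SE 0.06). The one that fell was Selp, and Car4 (0.22, SE 0.10) did not pass. Of 9 arterial genes 4 rose, 2 fell and 3 did not pass (median 0.31). With library totals 8 capillary and venous genes rose and none fell, against 6 arterial genes higher and 2 lower. The 2 that fell were the arterial connexin genes Gja5, from 26.6 to 11.2 CPM (-1.25, SE 0.10), and Gja4, from 41.7 to 23.3 CPM (-0.84, SE 0.08). The 4 that rose were Unc5b (1.02, SE 0.06), Efnb2 (0.85, SE 0.09), Dll4 (1.41, SE 0.22) and Hey1 (1.32, SE 0.32). Divided by the summed FPKM of the 10 genes, the summed FPKM of the arterial list was 0.506 ± 0.0198 in wild type against 0.282 ± 0.00339 in the labelled knockouts. Much of this rests on Gja4, at 18.2 and 13.5 FPKM, since without it the quotient was 0.265 ± 0.00622 and 0.200 ± 0.00390. Without Plvap, a capillary gene, in the denominator it was 0.590 ± 0.0262 and 0.365 ± 0.00615. The same quotient of the capillary and venous list was 0.552 ± 0.00142 and 0.518 ± 0.0161. None of these differences was tested.

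Lymphatic, fat and blood cell markers are given beside these genes because such cells may lie in the sampled tissue, and their part in the results was not tested. Of 7 lymphatic markers 3 rose, 2 fell and 2 did not pass, and their summed level was 16.3 to 19.6 FPKM in wild type and 23.8 to 24.9 FPKM in the labelled knockouts. The lymphatic sum relative to the summed FPKM of the 10 endothelial genes does not depend on library scaling. It was lower in the labelled knockouts, at 0.148 ± 0.00444 against 0.244 ± 0.0229 in wild type. Ccl21a, Lyve1 and Pdpn made up most of both lymphatic sums. Their means were 7.02, 5.17 and 4.85 FPKM in wild type and 6.29, 5.73 and 4.33 FPKM in the labelled knockouts. Whether their transcripts came from lymphatic cells was not tested. Mmrn1 went from 0.646 to 4.54 FPKM and Flt4 from 0.432 to 2.28 FPKM, so the lower quotient does not describe the lymphatic genes that rose. Prox1, the transcription factor that defines lymphatic endothelium, rose from 0.952 to 8.63 CPM (3.17 on the log2 scale, SE 0.24), Mmrn1 by 2.40 (SE 0.10) and Flt4 by 1.99 (SE 0.14). Lyve1 (-0.26, SE 0.08) and Pdpn (-0.57, SE 0.15) fell on the TMM scale, but neither call held with each library left out, and with library totals Lyve1 turned to 0.15 without a call. Both calls were lost without wild type 2 (edgeR adjusted p = 0.0713 for Lyve1 and 0.0628 for Pdpn), labelled knockout 2 (0.121 and 0.0659) or labelled knockout 3 (0.143 and 0.0716), and that of Lyve1 also without wild type 1 (0.059) or wild type 3 (0.108). Of 7 white fat genes 4 rose and none fell, at a summed 121 to 122 FPKM against 251 to 264 FPKM. Cidec, a lipid droplet gene of that list, did not pass (-0.24, edgeR adjusted p = 0.102), but was called lower without wild type 2 (edgeR adjusted p = 0.0338). Adipoq, the adiponectin gene, rose from 17.5 to 33.2 CPM (0.93, SE 0.08) and Cfd, the adipsin gene, by 0.85 (SE 0.04). The lipid droplet genes Plin4 and Plin1 rose by 0.35 (SE 0.03) and 1.13 (SE 0.16). Relative to the summed FPKM of the 10 endothelial genes, white fat markers stood at 1.61 ± 0.0144 in wild type against 1.57 ± 0.0466 in the labelled knockouts (SD, n = 3 each). The lowest wild type library, at 1.601, lay just above the highest labelled knockout library, at 1.598, and the difference was not tested. Most of both white fat sums was Cfd, at 71.2 ± 0.884 and 170 ± 4.73 FPKM. The quotient therefore mainly follows Cfd and not each gene of the list.

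Platelets and leukocytes carry PECAM-1, and platelets also von Willebrand factor and ESAM. Of 9 platelet markers 6 were tested, of which 4 fell and none rose, at a summed 15.8 to 17.2 FPKM in wild type and 10.1 to 14.1 FPKM in the labelled knockouts. Pf4 fell by 0.77 as a log2 fold change (SE 0.15) and Ppbp by 4.92 (SE 0.42). Itga2b (-1.03, SE 0.25, edgeR adjusted p = 0.0124) lost its call without wild type 3 or labelled knockout 2 (edgeR adjusted p = 0.0607 and 0.056), and Gp1ba (-1.33, SE 0.43, edgeR adjusted p = 0.0444) without any 1 of the 6 libraries (edgeR adjusted p = 0.0588 to 0.126). Gp1bb (1.06, edgeR adjusted p = 0.365) did not pass. With library totals 1 platelet gene was called lower, and DESeq2 with its own scaling called 6. Of 8 leukocyte markers 5 fell and none rose, at a summed 237 to 246 FPKM against 133 to 135 FPKM. Most of both sums was Lyz2, at 224 ± 4.64 and 115 ± 0.512 FPKM. Lyz2 fell by 1.36 (SE 0.03), Ptprc by 0.78 (SE 0.11) and Csf1r by 0.46 (SE 0.05, without a call with library totals). The neutrophil gene S100a8 (0.60), the T cell gene Cd3e (0.07) and the B cell gene Cd79a (-0.18) did not pass. With library totals 3 leukocyte genes were lower, with a list median of -0.18.

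**Figure D5:**
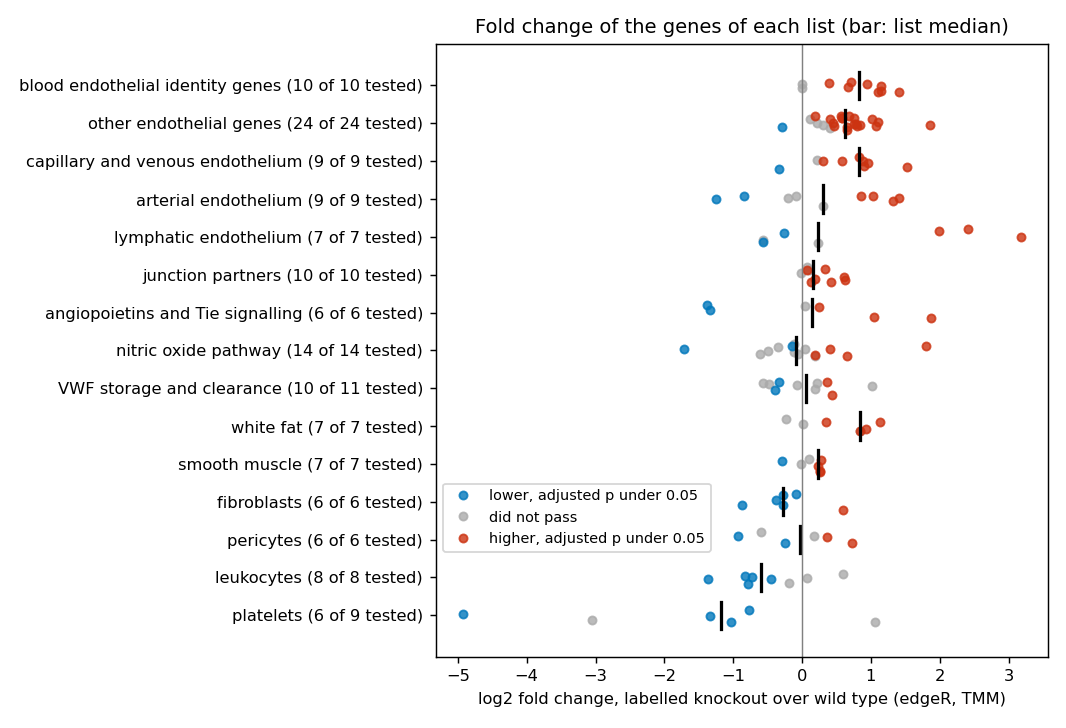
Log2 fold change of each tested gene by list, red for higher and blue for lower at an edgeR adjusted p under 0.05, grey for genes that did not pass, with the list median as a black bar. Points of the 10 blood endothelial genes (top) lie from -0.01 to 1.41 around a median of 0.83, while the platelet and leukocyte medians are at -1.18 and -0.59.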

How the data were processed

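The deposited table pairs each gene with read counts and FPKM per library. The authors' counts are treated as estimated counts, because a count of 4 occurs 6730 times, against 4974 for a count of 3 and 2929 for 5, so a read pair may be worth about 4 counts. Counts of 1 and 2 occur 6570 and 5616 times, and 26.85% of counts from 1 to 20 are divisible by 4, so this worth is uncertain. Counts divided by 4 are therefore an alternative, and rounding changed 0 values. FPKM values are the authors' deposited ones and serve for levels between genes, for sums over marker lists and for limma. Tools listed without roles in the submitters' processing notes are HISAT2 2.0 and Bowtie 0.12.2, with mm8 as the build, whereas the deposited coordinates of all 10 genes equal those of GENCODE M21 on GRCm38. For strand and counting settings the sources used here give nothing.

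Counts were tested with edgeR 4.0.16 (R 4.3.3; low-count filter, TMM, quasi-likelihood, Benjamini-Hochberg over 20132 genes, threshold 0.05). DESeq2 1.42.0, limma 3.58.1 on log2(FPKM + 1) and log2(FPKM + 0.1), other scalings and filters, and each library left out were alternatives. The procedure was tested on simulated data. Transcripts were compared with BLAST+ 2.17.0 over matches of at least 100 bases. Ratios to Cdh5 used counts of the same library.

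The 10 genes and the 21 other lists were chosen with earlier results of these data known. The rule for names allowed the 3 genes with the smallest p of each list and any gene of the angiopoietin, junction, nitric oxide and flow lists, and not all of these are named. Cldn5, Ecscr, Icam2, Cd34, Sox17, Erg, Fli1, Stxbp5, Efnb2, Dll4, Hey1, Car4, Lyve1, Pdpn, Ccl21a, Gp1ba, Gp1bb, S100a8, Cd3e, Cd79a, Plin1 and Cidec, and the arterial quotients without Gja4 or Plvap, were chosen after their values were seen.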

Additional observations from a re-analysis of the deposited data

How the results depend on the processing

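The 8 blood endothelial genes that rose kept direction and call in all 17 alternatives, with the highest adjusted p at 0.000937 (Emcn without labelled knockout 2, edgeR), and none of the 10 was called lower in any. Their median log2 fold change of 0.83 was 1.24 with library totals, 0.99 with totals that leave out mitochondrial genes, 0.86 without a low-count filter, 0.82 with a mean FPKM of at least 1, 0.82 with counts divided by 4, and 1.04 and 1.23 in limma on log2(FPKM + 1) and log2(FPKM + 0.1). With 1 library left out at a time it ranged from 0.81 to 0.86. Some values changed sign. With library totals, limma with pseudocount 1 and limma with pseudocount 0.1 they became 0.40, 0.38 and 0.40 for Esam, 0.12, 0.11 and 0.12 for Cldn5, 0.26, 0.26 and 0.26 for Hsp90ab1, 0.015, 0.013 and 0.013 for Cd63, 0.070, 0.057 and 0.069 for Selp, 0.15, 0.12 and 0.14 for Lyve1, and 0.39, 0.36 and 0.39 for Ctnnd1. With totals that leave out mitochondrial genes, Hsp90ab1 became 0.0092 and Ctnnd1 0.14. Values never called in either setting also crossed 0, among them Esam (0.15 with totals that leave out mitochondrial genes), Nos3 (-0.05 without wild type 1) and Cidec (0.17 with library totals). Relative to Pecam1 in place of Cdh5, Tek and Ptprb became 0.28 and 0.33. Over all genes, 2658 rose and 2323 fell, against 9425 and 768 with library totals, 4911 and 1361 with totals that leave out mitochondrial genes, and 9447 and 867 or 9330 and 866 in limma. For genes named outside the 10, apart from Atg9b, Gm15587, Ccl21a, Rgs5 and Cspg4, single libraries were left out in turn. This lost a call 42 times, gained one 3 times and left it as it was 387 times. A replicate block left 8 of the 10 genes higher and none lower, with 2464 higher and 2096 lower over all genes. The labels give same-numbered libraries no link beyond the number. Their deviations from the group means correlated at 0.03, -0.02 and -0.0096, and those of differently numbered libraries at -0.0245 to 0.0343. Whether any libraries share a batch was not tested. With 3 libraries a group, exact tests of ratios cannot pass the threshold.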

Other observations

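Other cell types of the vessel wall and its surroundings gave mixed counts in the labelled knockouts (edgeR adjusted p under 0.05), and their part in the endothelial results was not tested. Of 7 smooth muscle genes 4 rose and 1 fell (median log2 fold change 0.24). Of 6 pericyte genes 2 rose and 2 fell, at a summed 212 to 217 FPKM in wild type and 187 to 192 FPKM in the labelled knockouts. Most of both sums was Rgs5, at 159 ± 2.07 and 111 ± 1.91 FPKM. The next largest share, that of Cspg4, was 31.5 and 35.3 FPKM. Of 6 fibroblast genes 1 rose and 5 fell, a split that library totals turn to 4 higher and 1 lower. Of 5 Schwann cell genes none rose and 2 fell, and with library totals 2 rose and 1 fell. Of 5 red cell genes 3 fell and none rose, at a summed 412 to 421 FPKM against 381 to 382 FPKM.

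Markers of organs other than the vessel differed in level between genes and groups, and their source was not tested. Lung epithelium genes summed to 9.78 to 12.4 FPKM in wild type and 1.65 to 2.37 FPKM in the labelled knockouts, with 4 of 5 lower. Of 5 kidney epithelium genes 3 were tested and 1 fell, the water channel gene Aqp2, from 8.61 ± 0.345 to 0.243 ± 0.0972 FPKM (SD, n = 3 each). The other 4 were near 0 in both groups, with at most 32 counts in a library. In wild type Aqp2 stood above the endothelial gene Cdh5, which had 7.90 ± 0.567 FPKM. Cardiac muscle genes summed to 3.80 to 4.69 FPKM against 6.59 to 7.32 FPKM, with 2 of 5 tested genes higher and 1 lower. Of 3 tested brown fat genes 1 rose, and their sums were 6.21 to 9.12 FPKM and 10.6 to 16.2 FPKM.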
